A study of Mus musculus with 11 samples.

Results

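The genes described here are 32 markers and working parts of astrocytes, chosen by gene symbol from a set list of astrocyte-enriched genes. All 32 symbols were found among the 46202 gene rows of the hippocampus table. Each had a value in all 11 libraries and stayed above the filter on low values. The list covers the uptake and conversion of transmitters (Slc1a2, Slc1a3, Glul, Slc6a11, Slc7a10, Cbs), water, ion and membrane proteins (Aqp4, Kcnj10, Atp1b2, Slc4a4, Ttyh1, Mlc1, Hepacam) and gap junctions (Gja1, Gjb6). It also covers secreted and matrix proteins (Apoe, Clu, Mfge8, Htra1, Sparcl1, Bcan, Cpe), filament, calcium and metal binding (Gfap, S100b, Mt3), enzyme and cytosolic markers (Aldh1l1, Ndrg2), receptors and a transcription factor (Fgfr3, Ntsr2, Gpr37l1, Sox9), and thyroid hormone uptake (Slco1c1).

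RNA was sequenced from the hippocampus of male C3-C57B1/6J mice aged 2 to 3 months, single-housed and under isoflurane when the tissue was taken. Saline mice gave 3 libraries, and insulin at 2.4 IU per nare gave 2 libraries at 15 min, 3 at 1 h and 3 at 6 h. The titles call the controls saline whereas their treatment label reads untreated, with a time of 0 min, so each insulin time was set against controls of another sampling time. The labels give 3 animals per time without saying that each library is 1 animal, and the tests therefore rest on library-to-library spread, which may be technical. The study's stated subject is how insulin exposure bears on lipid metabolism of the brain. The values are log2 signals per gene; whether they are scaled to transcript length is not given in the sources used here, so levels of different genes were not ranked against each other. In a piece of whole tissue, fewer astrocytes and less of an RNA per astrocyte cannot be told apart.

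Astrocytes clear glutamate and GABA from synapses, turn glutamate into glutamine for neurons, buffer potassium and water around synapses and vessels, and form a network through gap junctions. They also supply the brain with apolipoprotein E particles and other secreted proteins. Astrocytes carry insulin receptors, and Gfap, their intermediate filament, is known to rise when they become reactive. The mean log2 signal over the 32 genes lay between 2.59 and 2.86 in the 11 libraries, against a median of -3.20 over all genes with a value. By the same measure neuronal markers lay between 2.94 and 3.23 and oligodendrocyte markers between 2.90 and 3.52. A set of 36 further astrocyte genes lay between 0.13 and 0.33. A mean above that median is thus not particular to astrocyte genes.

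Cbs, Fgfr3 and Aldh1l1 had the smallest p-values of the 32 genes across the time course, and their promoters are shown because the group means of all 3 ran in the same order over time. The windows come from RefSeq in GRCm38.p6 and reach from 250 bases before to 50 after a transcript start, which for Cbs and Aldh1l1 lies inside the gene span given further on. That of Cbs lies on the minus strand at chr17:31637156-31637455, that of Fgfr3 on the plus strand at chr5:33721474-33721773 (the first of 2 annotated starts), and that of Aldh1l1 on the plus strand at chr6:90550543-90550842. Capitals mark the core letters TTGGC of the nuclear factor I site, bound by a family, which is known to act in astrocyte development, read on either strand (GCCAA on the other).
Cbs: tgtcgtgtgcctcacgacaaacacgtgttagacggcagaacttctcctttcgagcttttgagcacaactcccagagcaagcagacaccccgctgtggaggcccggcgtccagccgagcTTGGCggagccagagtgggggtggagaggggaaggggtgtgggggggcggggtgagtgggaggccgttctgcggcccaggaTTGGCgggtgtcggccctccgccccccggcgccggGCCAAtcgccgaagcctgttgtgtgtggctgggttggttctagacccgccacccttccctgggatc
Fgfr3: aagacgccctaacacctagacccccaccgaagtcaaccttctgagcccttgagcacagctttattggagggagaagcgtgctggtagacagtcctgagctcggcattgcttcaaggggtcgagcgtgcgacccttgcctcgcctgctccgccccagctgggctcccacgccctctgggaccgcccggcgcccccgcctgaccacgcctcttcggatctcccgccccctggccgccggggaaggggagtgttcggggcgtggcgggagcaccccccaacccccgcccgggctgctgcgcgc
Aldh1l1: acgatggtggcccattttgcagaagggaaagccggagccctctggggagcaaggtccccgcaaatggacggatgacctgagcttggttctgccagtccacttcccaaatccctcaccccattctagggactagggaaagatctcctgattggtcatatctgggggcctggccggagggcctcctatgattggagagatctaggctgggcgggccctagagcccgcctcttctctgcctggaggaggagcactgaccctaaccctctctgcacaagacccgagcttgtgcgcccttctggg

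The Cbs window holds 3 such cores, whereas these letters are not in the Fgfr3 and Aldh1l1 windows. Among the 26 members with a window, 13 hold at least 1 (50%), against 46.7% of 32851 windows of the same length. The SRY-box core ACAAT, the short motif bound by Sox proteins such as Sox9, is found for 4 of the 26 members (15.4%), against 31% of all windows. The FOXO motif GTAAACA, bound by factors that insulin signalling holds out of the nucleus, is in 2 of 26 (7.69%), against 3.65%. The STAT motif TTCNNNGAA is in 3 of 26 (11.5%, against 8.3%), and the E-box CANNTG is in 20 of 26 (76.9%, against 72.3%). All were searched on both strands, and a match describes letters, not a bound site. A member counted if any of its windows matched, whereas the share over all windows counts each window singly.

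The deposited values were quantile-normalized, and each library held a value for 32037 to 33653 genes. Sequencing depth is unknown. Against saline, the rows tested had a median log2 change of -0.135 (15 min), -0.105 (1 h) and -0.039 (6 h), so members are also given relative to it. The 18S ribosomal RNA row (Rn18s-rs5) had log2 signals of 13.05 to 16.00 with saline, 9.67 and 10.49 at 15 min, between 10.18 and 10.51 at 1 h, and between 11.04 and 12.19 at 6 h. All insulin libraries lay below all saline libraries in this row, so what it records cannot be told apart from insulin in any comparison with saline. Beyond that, a pair of libraries stood apart by their shares of lowest values. In 15 min replicate 3, 19.0% of the rows with a value in all libraries had their lowest value, and in 6 h replicate 2 the figure was 21.3%. Highest values were most frequent in saline replicate 3 (18.4% of rows) and 6 h replicate 2 (17.0%), with 6.05% in 15 min replicate 3. Across rows, the deviation of 6 h replicate 2 from its group mean correlated with transcript GC content (Spearman's rho 0.383 over 21238 rows). In the other libraries rho ran from -0.3 (6 h replicate 1) to 0.233 (saline replicate 1), and it was -0.051 in 15 min replicate 3. Deviations cancel within a group, so the rho values of libraries in the same group are not independent. The numbers at the end of the column names run by group, so the order of handling they may record cannot be told apart from insulin. Exons of 6 members (Slc1a2, Glul, Slc7a10, Ttyh1, Aldh1l1, Fgfr3) overlap a gene on the opposite strand and those of 2 (Glul, Aldh1l1) a gene on the same strand. Strand use in counting is not given in the sources used here, so reads from both genes may be in these rows.

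None of the 32 astrocyte genes passed the threshold at any time after insulin. With limma's moderated test, adjusted by Benjamini-Hochberg over all rows at 0.05, 0 of 32 were called at 15 min, where 0.239% of all rows were called, and 4 of 32 had an unadjusted p under 0.05, against 15.1% of rows. At 1 h 0 of 32 were called (0.877% of rows), with 2 at an unadjusted p under 0.05 (15.7% of rows). At 6 h 0 of 32 were called (0% of rows), with 3 at an unadjusted p under 0.05 (6.98% of rows). The F test over the 3 times also called 0 of 32 (0.365% of rows), with 4 at an unadjusted p under 0.05 (14.4% of rows). The smallest adjusted p of a member was 0.101 (Cbs, 15 min), 0.190 (Fgfr3, 1 h) and 0.618 (Slco1c1, 6 h).

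The design bounded the changes of most members. At 15 min, 1 h and 6 h, the 95% interval of the log2 change lay within 1 of 0, that is within a doubling or halving, for 29, 30 and 29 of the 32 genes. The within-group SD of the members had a median of 0.125 log2 units, from 0.052 for Gja1, the main astrocyte connexin, to 0.658 for Atp1b2, a subunit of the sodium pump. Over all kept rows the median was 0.229. The heat map of each library's deviation from saline shows this spread, with a few rows of strong colour in single insulin libraries.

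**Figure D1:**
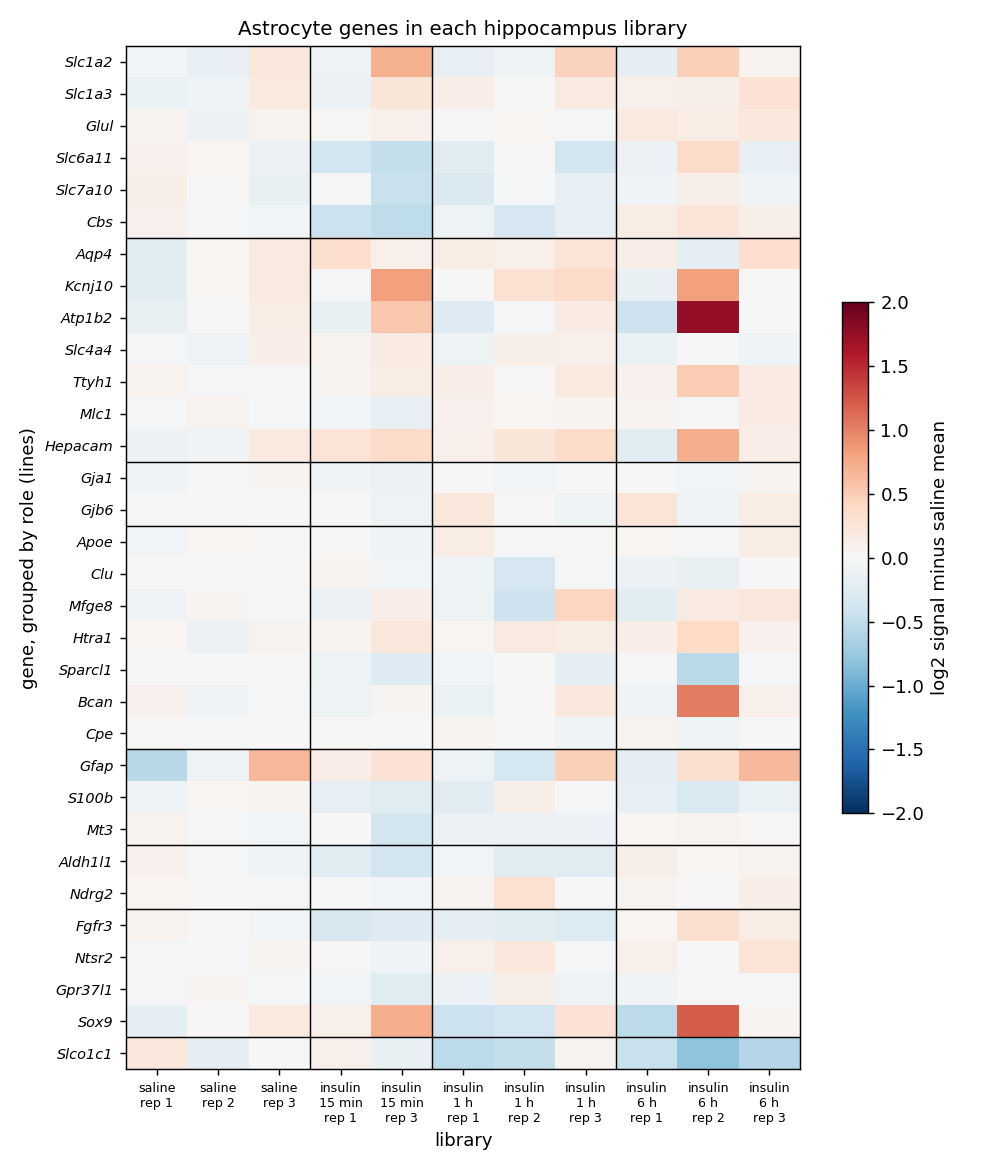
Log2 signal of each of the 32 astrocyte genes (rows, grouped by role) in each of the 11 libraries (columns, saline then insulin by time), minus the mean of the 3 saline libraries of that gene. The deepest red is Atp1b2 in 6 h replicate 2; Cbs and Fgfr3 are blue in all 15 min and 1 h libraries.

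For the 32 genes the median log2 change was -0.021 (15 min), -0.008 (1 h) and 0.084 (6 h). The signs of the first pair depend on scaling: with cyclic loess these medians were 0.022 and 0.004, and with median centring 0.151 and 0.132. Relative to the median of all rows, the members stood 0.115, 0.098 and 0.123 higher at the 3 times; with a pseudocount of 1 the differences were -0.005, 0.001 and 0.067, and with cyclic loess 0.019, 0.005 and 0.111. Within each library, the median signal of the members minus that of all rows had a within-group SD of 0.121. This is about the size of the shifts, but it describes single libraries and not the error of a change between groups. At 6 h the shift of the members relative to all rows was 0.02 without 6 h replicate 2.

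The summed linear signal of the 32 genes lay between 636 and 664 with saline, between 642 and 646 at 15 min, between 648 and 668 at 1 h, and between 663 and 706 at 6 h. The highest of these sums was that of 6 h replicate 3. Apoe (log2 signal 8.03 to 8.25) and Glul (6.53 to 6.87) contribute most to each sum, so it mainly follows these genes rather than the list. The plot of changes with their intervals shows most members close to no change at each time.

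**Figure D2:**
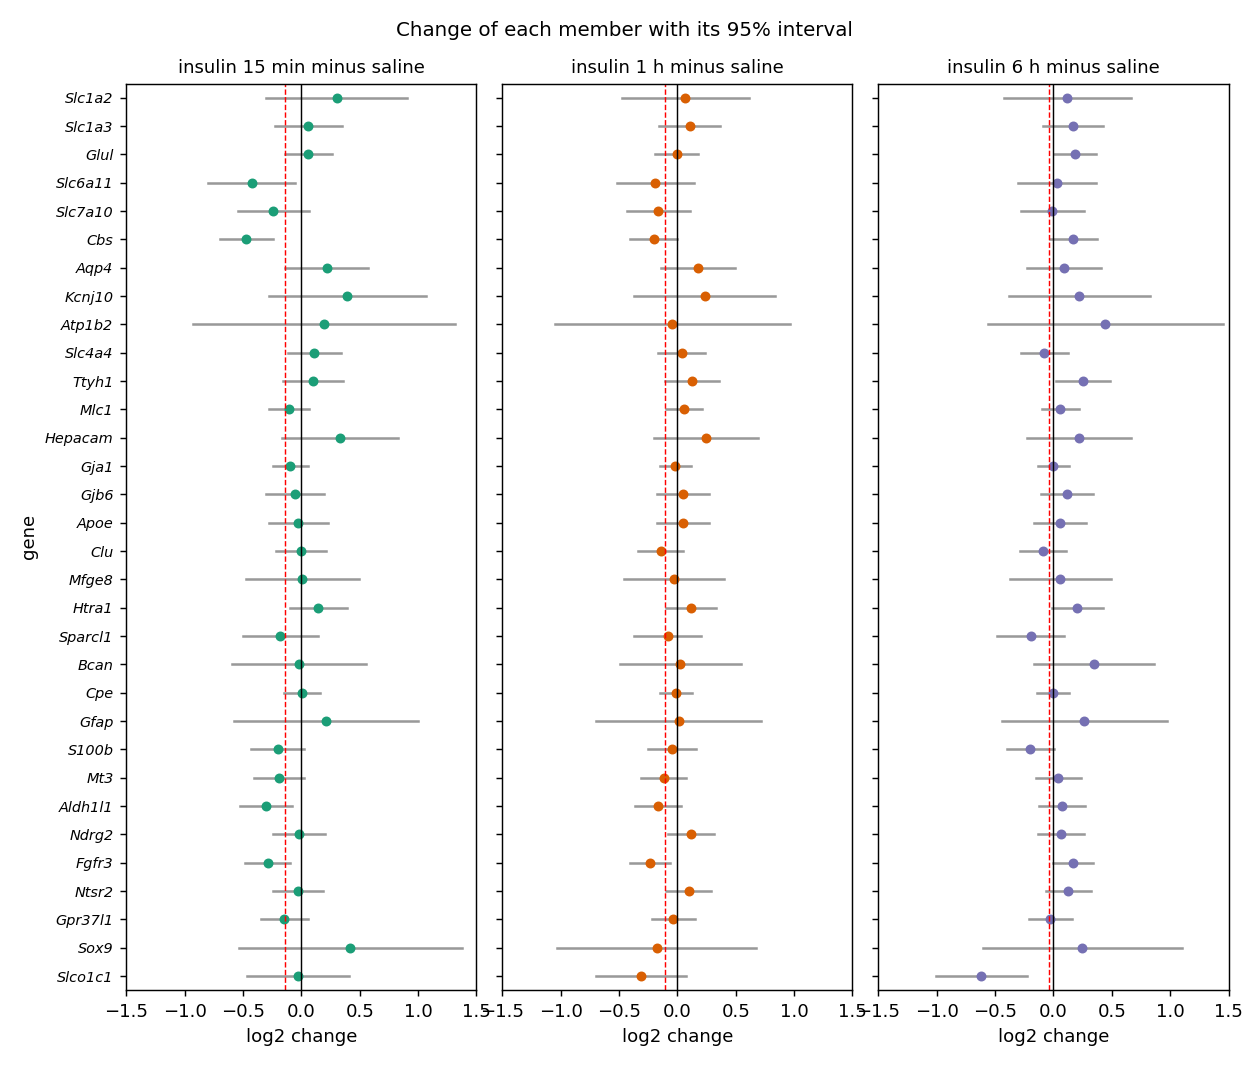
Log2 change of each of the 32 genes (rows) in insulin libraries minus saline libraries at 15 min, 1 h and 6 h (panels, left to right). Points are the fitted changes, grey bars their 95% intervals, the black line marks 0 and the red dashed line the median of all rows tested; the widest intervals belong to Atp1b2, Sox9, Gfap and Kcnj10.

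Among the genes that handle transmitters and amino acids, Cbs varied most with time. Cbs encodes cystathionine beta-synthase, which joins homocysteine and serine on the way to cysteine; the gene lies on chromosome 17, 31612623 to 31637233 (GRCm38.p6). Its log2 signal was -0.67, -0.77 and -0.81 with saline, -1.18 and -1.27 at 15 min, -0.86, -1.09 and -0.92 at 1 h, and -0.61, -0.50 and -0.64 at 6 h. All 5 libraries of the first hour lay below every saline library, and all 3 at 6 h lay above them. That pattern, with times on opposite sides of saline and no overlap, was shown by 1.05% of the 25771 rows with a value in every library and by 1 of the 32 members.

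Against saline, the log2 change of Cbs was -0.47 (SE 0.10, limma adjusted p = 0.101) at 15 min, -0.20 (SE 0.09, adjusted p = 0.317) at 1 h and 0.17 (SE 0.09, adjusted p = 0.721) at 6 h. None of these passed the threshold. Relative to all rows the 3 values were -0.34, -0.10 and 0.21, and with median centring they were -0.30, -0.07 and 0.20. The F test over the times gave an adjusted p of 0.0795, which ranged from 0.0538 to 0.228 over the alternatives. In 6 h libraries Cbs stood 0.64 above 15 min libraries (95% interval 0.41 to 0.87, adjusted p = 0.114).

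Slc6a11, the GABA transporter GAT-3, had values of 1.30, 1.26 and 1.10 with saline, 0.84 and 0.75 at 15 min, 1.01, 1.24 and 0.83 at 1 h, and 1.10, 1.60 and 1.05 at 6 h. Both 15 min libraries lay below all saline libraries, and the 1 h libraries overlapped them. The log2 change at 15 min was -0.42 (SE 0.17, limma adjusted p = 0.278). Between 6 h and 15 min libraries the difference was 0.45 (adjusted p = 0.275), and it was 0.28 without 6 h replicate 2, which held the highest value.

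Glul encodes glutamine synthetase, which turns glutamate and ammonia into glutamine. Its values were 6.85, 6.80 and 6.87 in 6 h libraries, against 6.7, 6.53 and 6.72 in saline libraries. The groups did not overlap, and the values at 15 min (6.68 and 6.75) and at 1 h (6.63, 6.69 and 6.61) lay within or close to the saline range. The log2 change at 6 h was 0.19 (SE 0.08, limma adjusted p = 0.714).

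Slc1a2 and Slc1a3, the main glutamate transporters of astrocytes, overlapped with saline at every time. Slc1a2 ranged from 3.36 in 6 h replicate 1 to 4.25 in 15 min replicate 3. Slc1a3 ranged from 1.44 in saline replicate 1 to 1.86 in 6 h replicate 3. Slc7a10, a transporter of small neutral amino acids including serine, ran from 0.19 in 15 min replicate 3 to 0.76 in saline replicate 1, with a log2 change of -0.24 (SE 0.14, limma adjusted p = 0.439) at 15 min. That change was -0.10 relative to all rows and -0.03 without 15 min replicate 3, which leaves a single library at 15 min. Of these 6 genes, 0 were called at any time.

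**Figure D3:**
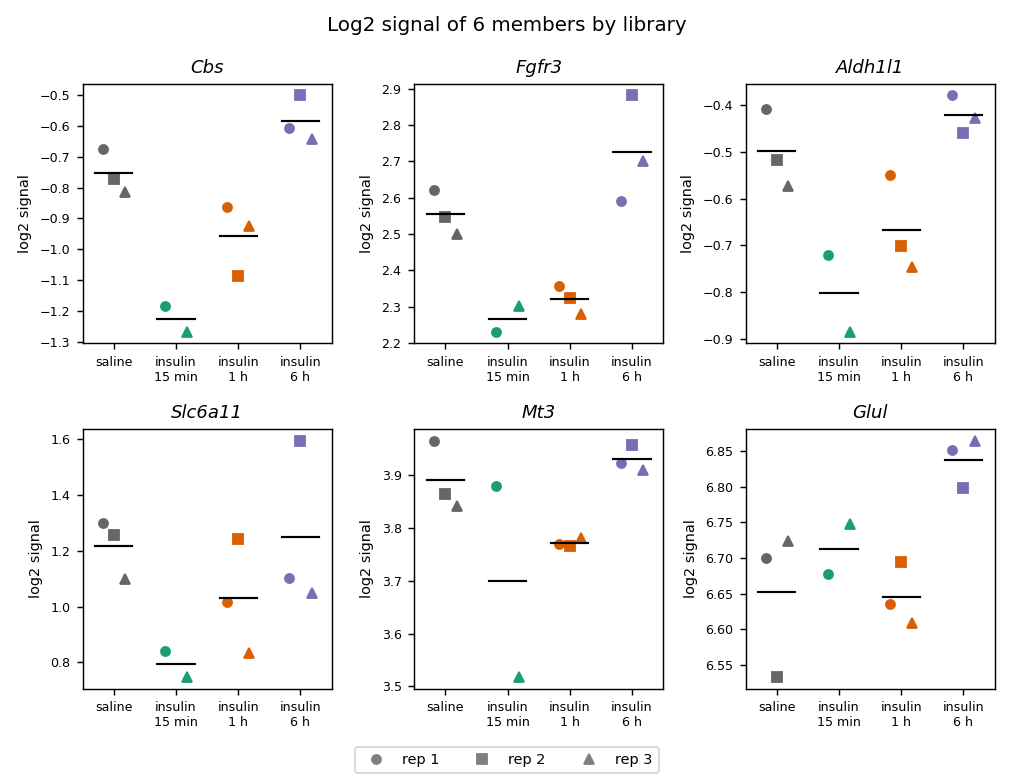
Log2 signal (vertical axes, a separate scale for each gene) of Cbs, Fgfr3, Aldh1l1, Slc6a11, Mt3 and Glul in each library of the saline and insulin groups (horizontal axes). Marker shapes give the replicate number and black lines the group means; for Cbs and Fgfr3 all 15 min and 1 h libraries sit below all saline libraries.

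Fgfr3, a fibroblast growth factor receptor found on astrocytes and their precursors, lies on chromosome 5, 33721724 to 33737068. It had values of 2.62, 2.55 and 2.50 with saline, 2.23 and 2.30 at 15 min, 2.36, 2.33 and 2.28 at 1 h, and 2.59, 2.88 and 2.70 at 6 h. The 15 min and 1 h libraries were all below the saline libraries, while the 6 h group overlapped them. The log2 change was -0.29 (SE 0.09, limma adjusted p = 0.187) at 15 min, -0.24 (SE 0.08, adjusted p = 0.190) at 1 h and 0.17 (SE 0.08, adjusted p = 0.717) at 6 h. Relative to all rows these were -0.15, -0.13 and 0.21, and with median centring they were -0.12, -0.10 and 0.20.

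Without 6 h replicate 2, in which Fgfr3 was highest, the change at 6 h was 0.09. Over the alternatives, the limma adjusted p ran from 0.0716 to 0.692 at 15 min and from 0.0629 to 0.718 at 1 h. Both lowest values came without 6 h replicate 2, which is in neither comparison but enters the shared estimate of spread. Rows called then also rose, from 66 to 104 at 15 min and from 243 to 479 at 1 h. The F test gave an adjusted p of 0.0946 for Fgfr3, between 0.0643 and 0.347 over the alternatives. In 6 h libraries Fgfr3 stood 0.46 above 15 min libraries (adjusted p = 0.152) and 0.40 above 1 h libraries (adjusted p = 0.157), with no overlap in either case. Over all rows, 22.5% and 13.4% were higher without overlap in these comparisons.

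Of the other receptors, Ntsr2, a neurotensin receptor, ran from 2.91 to 3.27 over all libraries. Gpr37l1, an orphan receptor of astrocytes, ran from 3.95 to 4.31. Its values at 15 min were 4.13 and 3.95, against 4.16, 4.25 and 4.15 in saline libraries, and the change was -0.15 (SE 0.09, limma adjusted p = 0.481), or -0.01 relative to all rows. It was -0.06 without 15 min replicate 3 and -0.24 without replicate 1, each time with a single library left at 15 min. Its sign turned under median centring.

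Aldh1l1, a folate enzyme widely used to mark astrocytes, lies on chromosome 6, 90550768 to 90599171. Its values were -0.41, -0.52 and -0.57 with saline, -0.72 and -0.89 at 15 min, -0.55, -0.70 and -0.75 at 1 h, and -0.38, -0.46 and -0.43 at 6 h. Both 15 min libraries and 1 h replicates 2 and 3 lay below every saline library, 1 h replicate 1 lay inside the saline range, and the 6 h libraries overlapped saline. The log2 change at 15 min was -0.30 (SE 0.10, limma adjusted p = 0.211), or -0.17 relative to all rows, and 6 h libraries stood 0.38 above 15 min libraries (adjusted p = 0.201). Ndrg2, a cytosolic astrocyte marker, ran from 5.18 to 5.54 and overlapped saline at every time.

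Gfap was among the more variable members, and its saline libraries differed widely. It had 2.17, 2.62 and 3.38 with saline, 2.86 and 3.00 at 15 min, 2.62, 2.37 and 3.20 at 1 h, and 2.55, 3.04 and 3.36 at 6 h. Every insulin library lay inside the saline range, and the log2 change at 6 h was 0.26 (95% interval -0.44 to 0.97, limma adjusted p = 0.829). S100b, a calcium-binding protein, had 3.78, 3.63 and 3.81 in 6 h libraries, against 3.85, 3.98 and 3.997 in saline libraries. The change at 6 h was -0.20 (SE 0.09, adjusted p = 0.719). At 15 min S100b had 3.77 and 3.70, also below all saline libraries. The change there was -0.20 (SE 0.10, adjusted p = 0.387), or -0.07 relative to all rows.

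Mt3 is a brain metallothionein that binds zinc and copper. Its values were 3.77, 3.77 and 3.78 in 1 h libraries, against 3.97, 3.87 and 3.84 in saline libraries, with no overlap. The change was -0.12 (SE 0.09, limma adjusted p = 0.559), or -0.01 relative to all rows, and its sign turned under median centring. At 15 min the values were 3.88 and 3.52, and the change of -0.19 (adjusted p = 0.386) was -0.01 without replicate 3, which leaves a single library.

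The genes for water, ion and membrane proteins held the widest spread, which sat in single libraries. Atp1b2 had 3.42, 3.58 and 3.73 with saline, 3.42 and 4.12 at 15 min, 3.32, 3.54 and 3.75 at 1 h, and 3.17, 5.33 and 3.56 at 6 h. The value of 5.33 belongs to 6 h replicate 2, and the other 6 h libraries reach from below the saline range to inside it. The change at 6 h was 0.44 (SE 0.45, limma adjusted p = 0.804), and it was -0.21 without that library.

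Kcnj10, the potassium channel Kir4.1, reached 2.93 in both 15 min replicate 3 and 6 h replicate 2, against 1.89 to 2.50 in the other 9 libraries. Its change at 6 h was 0.22 (SE 0.27, limma adjusted p = 0.832), and it was -0.08 without 6 h replicate 2. Hepacam, an adhesion protein that partners Mlc1, reached 1.91 in 6 h replicate 2 and had 0.97 to 1.57 elsewhere. Ttyh1, a membrane protein of astrocytes and neural precursors, had 3.64, 4.06 and 3.71 in 6 h libraries, against 3.62, 3.52 and 3.52 in saline libraries. The Ttyh1 groups did not overlap, but the change of 0.25 (SE 0.10, limma adjusted p = 0.714) was 0.12 without replicate 2.

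Aqp4, the water channel of astrocyte endfeet, ran from 1.66 to 2.23 over the libraries, Slc4a4, a bicarbonate transporter, from 0.04 to 0.34, and Mlc1 from 1.34 to 1.67. At 6 h, Slc4a4 was -0.19 against 15 min (SE 0.10, limma adjusted p = 0.428) with no overlap. Mlc1 was 0.17 (SE 0.08, adjusted p = 0.371), also with no overlap. Over all rows, 7.05% were lower and 22.5% higher without overlap in that comparison. Of the gap junction genes, Gja1 ran from 3.61 to 3.78 over the libraries, the smallest within-group SD of the members, and Gjb6 ran from 2.59 to 2.97.

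Sox9, a transcription factor of astrocytes, showed the same library pattern as Atp1b2. It had 0.70, 0.87 and 1.07 with saline, 0.99 and 1.61 at 15 min, 0.46, 0.50 and 1.17 at 1 h, and 0.36, 2.10 and 0.94 at 6 h. The change at 6 h was 0.25 (SE 0.38, limma adjusted p = 0.869), and -0.24 without replicate 2. For 6 of the 32 members (Slc1a2, Kcnj10, Atp1b2, Hepacam, Htra1, Sox9) the 2 highest values were in 15 min replicate 3 and 6 h replicate 2, which is 18.8% of members against 3.78% of rows. Those 2 libraries belong to different insulin times and have different replicate numbers, and the pair was picked after the values were seen. In 15 min replicate 3, 12 of the 32 members also had their lowest value, against 19.0% of rows. With a correction for GC content, chosen after seeing the data, the 6 h change was 0.44 for Atp1b2, 0.30 for Sox9 and 0.27 for Kcnj10.

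**Figure D4:**
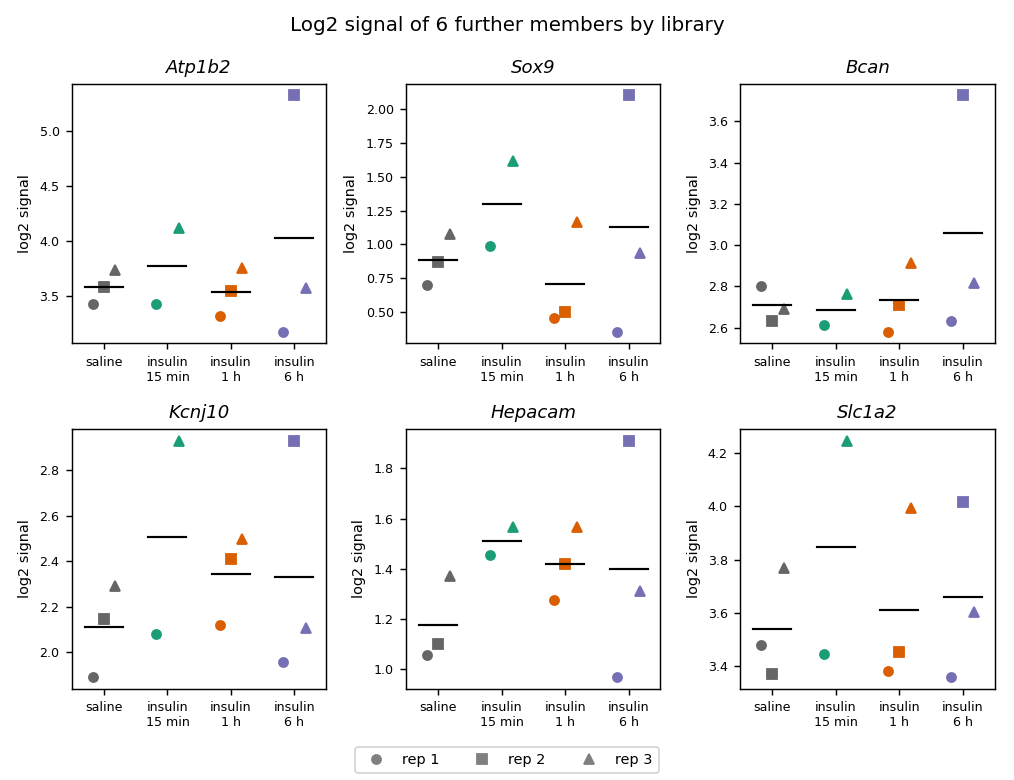
Log2 signal (vertical axes, a separate scale for each gene) of Atp1b2, Sox9, Bcan, Kcnj10, Hepacam and Slc1a2 in each library of the saline and insulin groups (horizontal axes). Marker shapes give the replicate number and black lines the group means; the square of 6 h replicate 2 is the highest point for Atp1b2, Sox9, Bcan and Hepacam.

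Among the secreted and matrix genes, Apoe, the main lipid carrier of the brain and the member closest to the study's subject, had 8.12 and 8.03 at 15 min, 8.25, 8.06 and 8.12 at 1 h, and 8.13, 8.08 and 8.24 at 6 h. In saline libraries it had 8.04, 8.14 and 8.12. Its groups overlapped at every time, and the interval of the change reached from -0.28 to 0.23 (15 min), -0.18 to 0.27 (1 h) and -0.17 to 0.28 (6 h) (limma adjusted p = 0.941, 0.865 and 0.891).

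Clu, a second apolipoprotein, ran from 4.07 to 4.45, and Cpe, a peptide-processing enzyme, from 3.38 to 3.53. Mfge8, a bridging protein for phagocytosis, ran from 0.47 to 1.30. Htra1, a secreted serine protease, had 1.15, 1.42 and 1.11 in 6 h libraries, against 1.06, 0.91 and 1.09 in saline libraries, with a change of 0.20 (SE 0.10, limma adjusted p = 0.721) that was 0.11 without 6 h replicate 2. The Htra1 groups did not overlap.

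Bcan, which encodes the matrix proteoglycan brevican, had 2.63, 3.73 and 2.81 in 6 h libraries, against 2.80, 2.63 and 2.69 in saline libraries. The high value was again that of replicate 2, and the change of 0.35 (SE 0.23, limma adjusted p = 0.740) was 0.02 without it and 0.19 with the GC correction. Sparcl1, known as hevin, had 5.42, 4.91 and 5.41 in 6 h libraries, against 5.44, 5.45 and 5.43 in saline libraries. All 6 h values lay below saline, but the change of -0.20 (SE 0.13, adjusted p = 0.740) was -0.03 without replicate 2. At 15 min Sparcl1 had 5.34 and 5.19, also below saline, with a change of -0.18 (SE 0.14, adjusted p = 0.580).

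Slco1c1, a carrier of thyroid hormone, had the smallest p of the members at 6 h. The gene lies on chromosome 6, 141524354 to 141570177, and besides astrocytes it is known from brain vessels and choroid plexus. Its values were -0.13, -0.53 and -0.35 with saline, -0.25 and -0.49 at 15 min, -0.86, -0.82 and -0.27 at 1 h, and -0.79, -1.15 and -0.93 at 6 h. All 6 h libraries lay below all saline and 15 min libraries. The log2 change at 6 h was -0.62 (95% interval -1.01 to -0.23, SE 0.18, limma adjusted p = 0.618), or -0.58 relative to all rows and -0.52 without 6 h replicate 2.

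Choroid plexus markers were also low in several of these libraries. Of the 11 listed genes that had a row, 10 were tested, 0 were called at 6 h, and their median change was -1.97. Their summed linear signal lay between 28.8 and 136 at 15 min, between 3.51 and 90.2 at 1 h and between 1.43 and 24.4 at 6 h, against 41.0 to 62.6 with saline. Ttr, the choroid plexus transthyretin, had 2.31, -0.73 and 4.44 in 6 h libraries, against 5.85, 5.22 and 5.50 in saline libraries; at 1 h it had 1.17, 4.29 and 6.39, and replicate 3, the highest there, was also highest at 1 h for Slco1c1.

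The summed signal of 11 endothelial markers lay between 9.40 and 11.6 at 15 min, between 10.4 and 11.2 at 1 h and between 11.5 and 14.8 at 6 h, against 12.0 to 18.1 with saline. The lowest Slco1c1 value and the lowest Ttr value were in the same library, 6 h replicate 2. In 6 h replicate 3, by contrast, Slco1c1 was below replicate 1 although Ttr was above it. In that library the summed choroid plexus signal (24.4, against 41.0 to 62.6 with saline) and Ttr (4.44) still lay below all saline libraries. The mean log2 signal of the choroid plexus markers there (-1.41) leaves out 1 marker without a value. It therefore cannot be set against the saline means. The part of choroid plexus or vessel RNA in the Slco1c1 values was not tested.

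**Figure D5:**
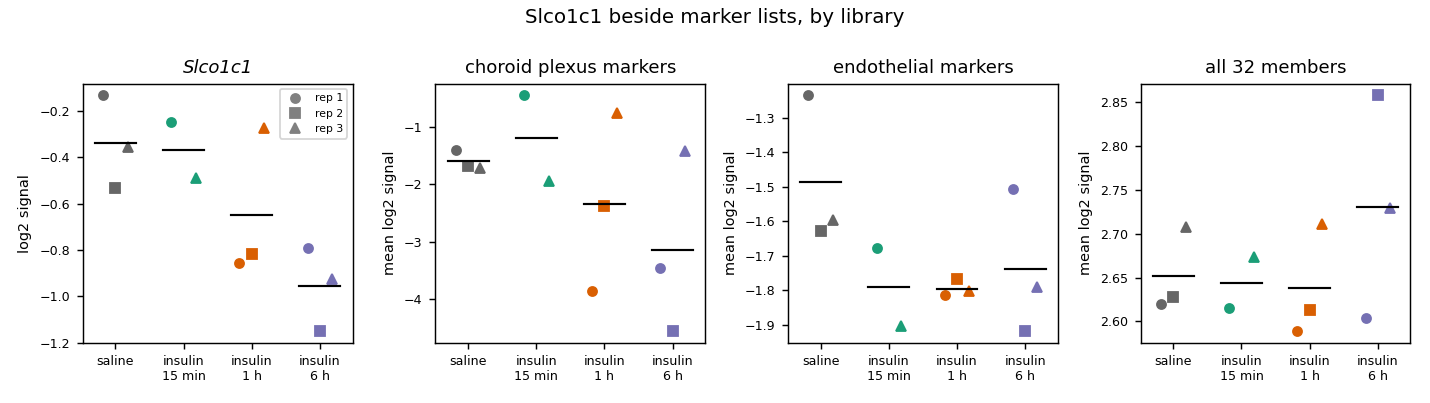
Log2 signal of Slco1c1 and mean log2 signal of the choroid plexus markers, the endothelial markers and all 32 astrocyte genes (panels; vertical axes, separate scales) in each library of the saline and insulin groups (horizontal axes). Marker shapes give the replicate number and black lines the group means. Slco1c1 and the choroid plexus markers are both lowest in 6 h replicate 2. The choroid plexus mean of 6 h replicate 3 leaves out 1 marker without a value.

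Counts of members whose groups did not overlap were read against the same count over all rows. At 15 min, 8 of 32 were lower in every insulin library, against 31.6% of rows, and 1 was higher (Hepacam), against 6.86% of rows. At 1 h, 3 were lower (Fgfr3, Cbs, Mt3), against 21.8% of rows, and 0 were higher, against 6.29%. At 6 h, 4 were higher (Ttyh1, Glul, Htra1, Cbs), against 4.27% of rows, and 3 were lower (Slco1c1, S100b, Sparcl1), against 8.90%. Members thus lay below saline at 15 min and 1 h by count no more often than rows in general. Hepacam was named after its values were seen.

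Between the insulin times, limma called 0 of 32 members in each comparison. From 15 min to 1 h, where 0% of all rows were called, 1 member (Cbs, higher at 1 h by 0.27, adjusted p = 1.00) had an unadjusted p under 0.05, against 3.49% of rows. Between 6 h and 15 min, where 0.00723% of rows were called, 6 members had an unadjusted p under 0.05, against 14.2% of rows; Cbs, Fgfr3, Aldh1l1, Slc6a11 and Mt3 were higher at 6 h and Slco1c1 lower. Between 6 h and 1 h, where 0.0108% of rows were called, 4 members (Fgfr3, Cbs, Aldh1l1, Glul) had an unadjusted p under 0.05 and were higher at 6 h, against 11.1% of rows. These comparisons share libraries with those against saline and are not separate evidence. The order of group means from 15 min through 1 h and saline to 6 h, lowest to highest, was held by 5 members (15.6%), against 11.5% of rows. Another order, from 15 min through saline and 1 h to 6 h, was also held by 5 members (15.6%), against 4.91% of rows.

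Of 36 further astrocyte genes tested, 0 were called at any time, and at an unadjusted p under 0.05 2 were higher and 1 lower at 15 min, 6 higher and 2 lower at 1 h, and 1 higher and 0 lower at 6 h. Over all rows, the shares at that p were 1.86% higher and 13.2% lower at 15 min, 2.87% and 12.8% at 1 h, and 2.75% and 4.23% at 6 h. Their median change was -0.11, -0.03 and 0.00 at the 3 times. Of the markers of reactive astrocytes, 0 were called. The median changes of 9 general markers were -0.16, -0.16 and -0.27 at 15 min, 1 h and 6 h, or -0.02, -0.05 and -0.23 relative to all rows. Single genes of that list ran from -0.53 to 3.17, from -0.40 to 1.09 and from -0.86 to 0.14. At an unadjusted p under 0.05, 1 was higher and 1 lower at 15 min, 1 higher and 0 lower at 1 h, and 0 higher and 1 lower at 6 h. Those of 10 markers of the inflammatory state were -0.13, 0.02 and -0.21, and those of 10 markers of the ischaemic state were 0.00, 0.01 and -0.20.

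Markers of the other cell types in the tissue gave a background for these values. Of the lists for neurons, interneurons, oligodendrocytes and their precursors, endothelium, pericytes, choroid plexus, ependyma, meninges and blood, 0 genes were called by limma against saline at any time. At an unadjusted p under 0.05, 4, 5 and 2 of 11 endothelial genes were lower at 15 min, 1 h and 6 h, as were 4, 4 and 2 of 9 pericyte genes. At 6 h, 5 of 9 ependymal genes were lower; the shares of all rows are those just given. The summed signal of 12 neuronal markers lay between 234 and 236 at 15 min, between 217 and 251 at 1 h and between 224 and 246 at 6 h, against 238 to 258 with saline. That of 9 precursor markers of oligodendrocytes, from which Bcan is also known, was 40.4, 65.6 and 45.6 in 6 h replicates 1 to 3, against 42.2 to 44.0 with saline; the high value is that of the library in which Bcan was highest. The part of these cells in the astrocyte values was not tested.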

How the data were processed

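The authors deposited 1 table of log2 signals per gene symbol for 11 libraries, with cells marked as missing. Per the submitters' processing notes, bcl2fastq, Partek 6.7 and GRCm38 were used; the notes give no role for any of them, and aligner and counter are not given in sources used here. Every library has a minimum of -13.64, a median of -3.20 and a maximum of 16.00, so the deposited log2 values are quantile-normalized; other kinds of value cannot be recovered and depth is unknown. Per the labels' protocols, libraries came from a stranded total RNA kit.

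Rows in the lowest 40% by mean were left out, which kept 27721 rows. A model with 4 groups was fitted to all libraries in limma 3.58.1 (R 4.3.3) with a mean-variance trend. Two-sided tests were adjusted by Benjamini-Hochberg at 0.05 over all rows tested in each comparison, and ± and SD are between libraries. The script was tested on simulated data. For each comparison the 8 members with the smallest p were named, and the others are given by role. Members and lists were chosen with earlier results of these data known. Symbols were matched to RefSeq GRCm38.p6 (32 of 32 members), the source of gene positions and promoters. Alternatives covered scaling, filters, a pseudocount, trend, samples fitted, a replicate block and leaving out each library; a GC correction and leaving out both libraries that stood apart were chosen after seeing the data.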

Additional observations from a re-analysis of the deposited data

Results flagged for a closer look

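Cbs differed in direction between insulin times: every 15 min library lay below every saline library and every 6 h library above. The difference between 6 h and 15 min libraries was 0.642 on the log2 scale; its own test in limma gave an adjusted p of 0.114, which does not pass the threshold. The value was 0.60 to 0.68 when each library was left out in turn, and 0.50 with median centring.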

How the results depend on the processing

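The count of called members was 0 in every comparison under every alternative run. Of 1168 recomputed values of named members, 1166 kept their direction and side of the threshold and 0 passed it. The sign turned under median centring for Gpr37l1 at 15 min (0.026, adjusted p = 0.944) and Mt3 at 1 h (0.021, adjusted p = 0.945). Counts over all rows moved. Leaving out both libraries that stood apart leaves a single library at 15 min, so counts involving that time are not given for it. At 15 min (66 rows) the counts over all rows were 31 with cyclic loess, 112 with a pseudocount, 1 with only the groups compared and 114 without the trend. At 1 h (243 rows) they were 136, 394 and 138 under the first 3 of these settings and 414 without both libraries. Between 6 h and 15 min (2 rows) the count was 0 with only the groups compared, 6 without the trend and 6 with the GC correction. Between 6 h and 1 h (3 rows) it was 1 with a pseudocount, 0 with only the groups compared and 0 without both libraries. For the F test (101 rows) it was 49 with cyclic loess, 53 with median centring, 35 without both libraries and 62 with the GC correction. The cause was not tested.

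Leaving out 1 library at a time gave 5 to 104 rows at 15 min, 42 to 479 at 1 h, 0 to 0 at 6 h, 0 to 3 between 6 h and 15 min, 0 to 4 between 6 h and 1 h, and 18 to 124 in the F test. The median of the members relative to all rows was then 0.082 to 0.135 at 15 min, 0.076 to 0.122 at 1 h, 0.02 to 0.153 at 6 h, -0.028 to 0.055 between 1 h and 15 min, -0.052 to 0.039 between 6 h and 15 min, and -0.052 to 0.059 between 6 h and 1 h.

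The replicate block gave 38 rows at 15 min, 159 at 1 h, 40 in the F test, 0 between 6 h and 15 min and 0 between 6 h and 1 h, with 0 members called. Replicate numbers were not taken to pair the samples, and the correlations of deviations cannot decide whether they do. Those of the 15 same-numbered pairs were -0.056 to 0.237 (median 0.087), with 7 over 0.1. The 30 differently numbered pairs correlated at -0.25 to 0.25 (median -0.061), with 5 over 0.1. Deviations cancel within a group, and those of the 15 min libraries mirror each other, so the pairs are not independent. With 2 or 3 libraries per group and unknown depth, small changes cannot be resolved.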
